A study of Homo sapiens with 24 samples.

Results

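The change over the later hours of culture was measured in MOLT4 cells that had received only the solvent DMSO. MOLT4 is an established line from a human T-cell leukaemia of the acute lymphoblastic kind. The 4 libraries taken after 8 h in DMSO were compared with the 4 taken after 4 h, as their labels name them, so 8 of 24 libraries and all 9822 genes of the count table entered. The other 16 libraries came from DMSO at 1 h and from SK-3-91, called a pan-kinase degrader in the labels, at 1, 4 and 8 h, with 4 libraries in each group. All cells grew in RPMI1640 medium with fetal bovine serum. The sources used here give no concentration for DMSO or SK-3-91. No group without solvent was analysed here, so time in DMSO and time in culture cannot be told apart.

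Cells in culture use up oxygen and glucose as they grow. When oxygen is short, prolyl hydroxylases no longer mark the alpha subunit of hypoxia-inducible factor for destruction, and the factor turns on genes for glucose uptake, glycolysis, lactate export, blood vessel growth and the removal of mitochondria. The alpha subunit is controlled mainly as a protein. MYC, a main driver of growth in T-cell leukaemia, promotes the genes that build ribosomes in the nucleolus.

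The 8 libraries held 13566806 to 14625561 counted reads. Whether replicates came from separate cultures is not said in the labels, so each p-value covers only the spread between libraries of a group, which could be technical. That spread was estimated from all 24 libraries in 6 groups, not from these 8 alone. Over the 12 pairs of libraries from the same time, chi-square per degree of freedom was 1.63 to 5.98, so no pair agreed within sampling noise. Of 21 markers of the labelled cell type, 18 were in the table, with a summed level of 5569 to 5640.0 CPM (reads of a gene scaled to a common library total) at 4 h and 5841 to 6075 CPM at 8 h. None of 12 myeloid, 9 natural killer or 11 erythroid and megakaryocytic markers was among the 9822 genes. Of 9 B cell markers 3 were (IGLL1, VPREB1 and CD79A), with sums of 215 to 228 CPM at 4 h and 226 to 284 CPM at 8 h. ESRP1 was the 1 of 8 epithelial markers, at 5.32 to 7.07 and then 7.25 to 7.92 CPM, and PECAM1 the 1 of 10 fibroblast or endothelial markers, at 33.1 to 36.5 and then 42.7 to 43.7 CPM. The part of other cells in the results was not tested. In bulk RNA, fewer cells of a type and less RNA per cell cannot be told apart.

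Genes known to answer to low oxygen led the change from 4 to 8 h. PFKFB4, an enzyme that speeds up glycolysis, rose 6.23-fold, and SLC16A3, a lactate exporter, 4.30-fold. Of 48 measured hypoxia-inducible genes 39 rose (81.2%, against 15.9% of all genes), with a median log2 fold change of 0.69, where the median over all genes was -0.000755. Nucleolar genes that MYC drives went the other way: 29 of 41 fell (70.7%, against 14.8% of all genes), with a median of -0.18. Both lists were chosen with earlier results of these data known, so their shares describe the data and are not independent support. Every change is relative to the rest of the genes in a library, not absolute.

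Many genes changed by little and few by much. At an adjusted p under 0.05 (edgeR quasi-likelihood test, Benjamini-Hochberg adjustment over all genes), 1563 genes were higher at 8 h and 1456 lower, together 3019 (30.7%). In 1494 genes (15.2%) every 8 h library lay above every 4 h library, and in 1423 (14.5%) every one lay below. By at least 2-fold, 30 genes were higher (0.305%) and 2 lower (0.0204%). By at least 1.5-fold, 117 were higher (1.19%) and 10 lower (0.102%). The count of 2 lower genes became 1 without 4 h replicate 1, 4 h replicate 3 or 8 h replicate 4. Without scaling factors 1266 genes were higher and 1829 lower, so 40.9% of the calls were increases in place of 51.8%.

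**Figure D1:**
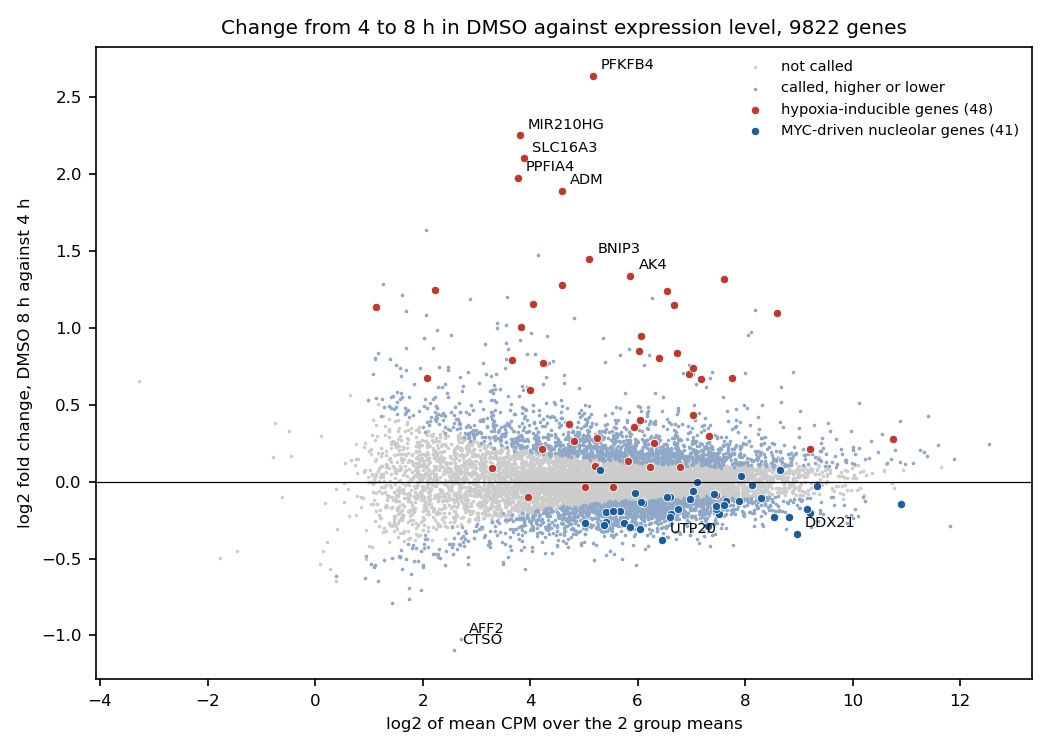
Each point is 1 of the 9822 genes, with log2 mean CPM on the x axis and the log2 fold change from 4 to 8 h in DMSO on the y axis, and with the hypoxia-inducible and nucleolar lists in colour. The hypoxia-inducible genes reach 2.64 (PFKFB4), while the nucleolar genes lie between -0.38 and 0.076.

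Small changes followed base composition. In the lowest quintile of genes by transcript GC content (30.9% to 40.4%) the median log2 fold change was -0.083, with 5.23% higher and 29.9% lower. In the highest quintile (57.7% to 74.2%) it was 0.074, with 27.3% higher and 5.03% lower. The mean GC content weighted by reads was 48.71% to 49.07% in the 4 h libraries and 48.96% to 49.48% in the 8 h libraries, so the ranges overlapped. With offsets for GC content and gene width, 1426 genes were higher and 1675 lower, and 2196 of the 3019 calls were made again in the same direction, with 0 reversed. The hypoxia list then had 41 members higher and the nucleolar list 33 lower. What produced the relation to GC content was not tested.

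The largest increases left a wide gap between the times. PFKFB4, which makes the sugar phosphate that activates phosphofructokinase, measured 7.95, 9.38, 11.4 and 10.9 CPM at 4 h and 57.3, 56.8, 64.7 and 68.1 CPM at 8 h. The groups were far apart, with a log2 fold change of 2.64 ± 0.082 (SE, n = 4 per time; edgeR adjusted p = 7.77e-26). PFKFB3, a relative with the same role, measured 99.8, 113, 115 and 118 CPM and then 269, 271, 303 and 272 CPM. It rose 2.50-fold without overlap (edgeR adjusted p = 8.97e-24). SLC16A3 measured 4.94, 5.54, 6.69 and 5.10 CPM and then 23.7, 22.9, 23.3 and 26.2 CPM, again with no overlap (2.11 ± 0.11, edgeR adjusted p = 6.12e-19).

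MIR210HG, the host transcript of a microRNA of the low-oxygen response, measured 4.38, 4.35, 5.82 and 4.85 CPM at 4 h and 21.9, 22.4, 24.3 and 23.9 CPM at 8 h. The 8 h values lay close together, far above 4 h (2.25 ± 0.10, edgeR adjusted p = 2.42e-20). ADM, which encodes the vessel-widening peptide adrenomedullin, measured 7.26, 9.51, 12.1 and 11.9 CPM and then 33.1, 33.5, 39.9 and 44.8 CPM. Its groups did not overlap, with more spread inside each (1.89 ± 0.10, edgeR adjusted p = 4.99e-18). PPFIA4, a scaffold protein of the liprin family, measured 4.44, 4.85, 6.19 and 6.63 CPM and then 23.6, 17.9, 20.2 and 25.4 CPM, with 8 h above 4 h throughout (1.98 ± 0.13, edgeR adjusted p = 3.60e-15).

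A pair of these genes act in the mitochondria. BNIP3, a receptor for the removal of mitochondria, measured 18.8, 18.5, 18.4 and 18.04 CPM at 4 h and 51.4, 45.8, 51.7 and 52.5 CPM at 8 h. The 4 h values were almost equal, replicate 2 was the lowest at 8 h, and the rise was 2.73-fold (edgeR adjusted p = 1.49e-20). Of its transcript's 32-base words, 19.3% also occur in other genes. AK4, an adenylate kinase of the mitochondrial matrix, measured 32.8, 32.9, 33.3 and 33.03 CPM and then 79.6, 85.1, 90.5 and 79.1 CPM. The groups did not overlap and the rise was 2.53-fold (edgeR adjusted p = 6.25e-22).

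The 6 other genes among the 14 largest increases had log2 fold changes between 1.203 and 1.63. On the hypoxia list were STC2 (1.28), a secreted glycoprotein, RAB20 (1.24), a small GTPase, and BHLHE40 (1.24), a transcriptional repressor. RASAL1 (1.63), a Ras regulator, CERCAM (1.48) and the corepressor RCOR2 (1.203) are not on it. BHLHE40 measured 47.9, 56.3, 59.7 and 58.3 CPM at 4 h and 124, 117, 148 and 136 CPM at 8 h. RASAL1 was a low gene, at 1.66 to 2.33 CPM at 4 h and 5.58 to 7.34 CPM at 8 h. The rule that chose the 14 asked for no overlap between the times. Of the 30 genes higher by at least 2-fold, 16 (53.3%) were on the hypoxia list, which is 33.3% of that list. The list was chosen with earlier results of these data known.

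**Figure D2:**
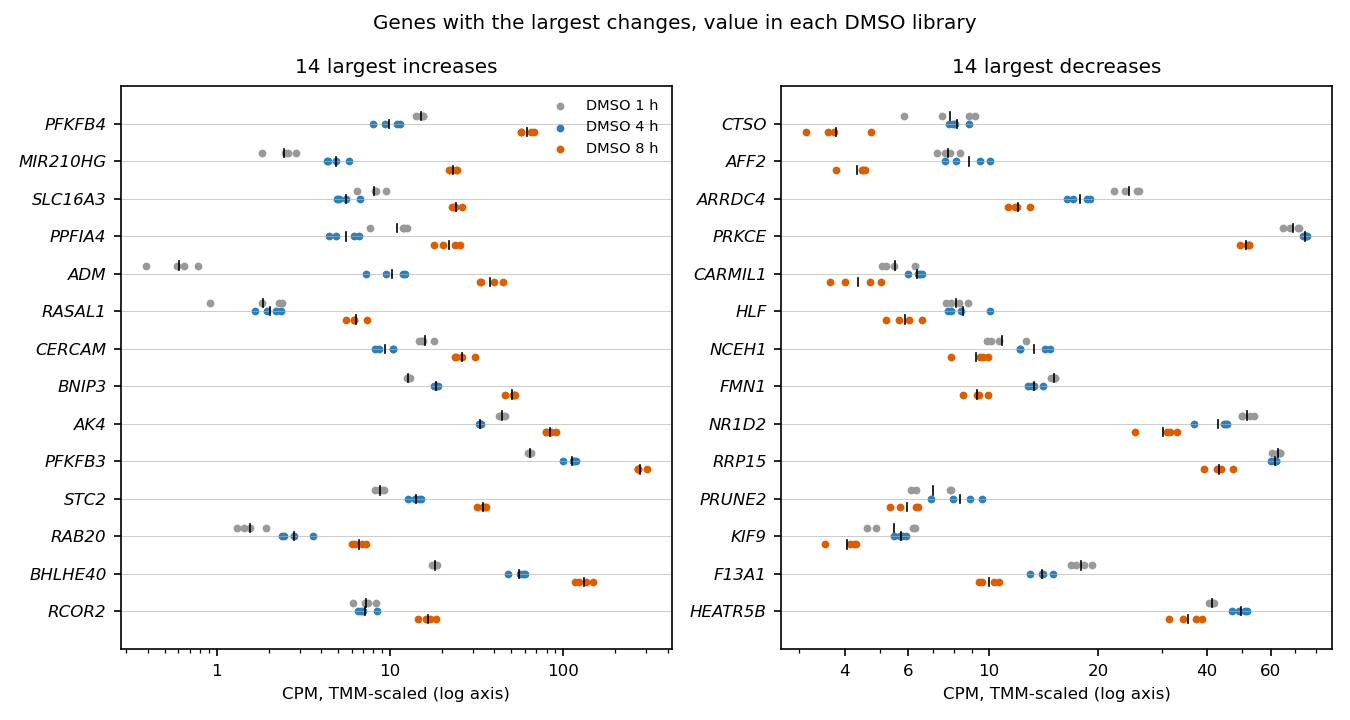
CPM on a log axis in each of the 12 DMSO libraries for the 14 largest increases (left) and the 14 largest decreases (right) from 4 to 8 h, coloured by time, with a tick at each group mean. PFKFB4 lies at 7.95 to 11.4 CPM at 4 h and 56.8 to 68.1 CPM at 8 h, while on the right PRKCE lies at 73.5 to 75.4 CPM at 4 h and 49.3 to 52.1 CPM at 8 h.

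Promoters of some of these genes are shown so that the letters of the hypoxia response element can be set beside the size of the change. They come from RefSeq on build GRCh38.p14, from 250 bases before to 50 bases after the transcription start, and 23 of the 28 largest increases and decreases had an entry, all but RASAL1, RAB20, RCOR2, CARMIL1 and CTSO. ACGTG and GCGTG, the core of the element, were searched on both strands. ACGTG lies within the E-box CACGTG, which reads the same on both strands and so counts as 2 matches. Capitals mark the matches, which read CACGT or CACGC where they lie on the opposite strand. PPFIA4 is at chr1:203026241-203026540 on the plus strand, BNIP3 at chr10:131981874-131982173 on the minus strand, AK4 at chr1:65147302-65147601 on the plus strand, BHLHE40 at chr3:4979187-4979486 on the plus strand, MIR210HG at chr11:568408-568707 on the minus strand, SLC16A3 at chr17:82228185-82228484 on the plus strand and ARRDC4 at chr15:97960453-97960752 on the plus strand. All are written 5′ to 3′ on the strand of the gene. ARRDC4 is among the genes that fell, and the other 6 rose.
PPFIA4: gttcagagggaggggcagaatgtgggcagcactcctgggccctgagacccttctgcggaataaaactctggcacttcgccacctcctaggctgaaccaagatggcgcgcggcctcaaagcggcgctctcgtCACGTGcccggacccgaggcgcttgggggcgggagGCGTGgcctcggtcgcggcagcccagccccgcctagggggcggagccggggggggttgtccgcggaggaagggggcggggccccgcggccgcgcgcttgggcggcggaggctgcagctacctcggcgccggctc
BNIP3: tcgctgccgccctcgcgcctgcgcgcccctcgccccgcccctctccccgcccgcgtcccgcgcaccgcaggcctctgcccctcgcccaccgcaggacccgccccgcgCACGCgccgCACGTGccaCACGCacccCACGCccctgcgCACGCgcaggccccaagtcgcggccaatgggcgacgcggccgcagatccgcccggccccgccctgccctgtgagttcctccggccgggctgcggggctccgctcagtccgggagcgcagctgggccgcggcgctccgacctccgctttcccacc
AK4: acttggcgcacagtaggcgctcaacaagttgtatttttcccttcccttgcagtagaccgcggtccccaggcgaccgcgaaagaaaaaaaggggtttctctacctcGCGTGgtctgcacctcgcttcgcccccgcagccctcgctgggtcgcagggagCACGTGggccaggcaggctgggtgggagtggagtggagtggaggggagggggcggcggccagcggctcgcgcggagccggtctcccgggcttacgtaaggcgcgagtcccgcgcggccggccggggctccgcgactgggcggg
BHLHE40: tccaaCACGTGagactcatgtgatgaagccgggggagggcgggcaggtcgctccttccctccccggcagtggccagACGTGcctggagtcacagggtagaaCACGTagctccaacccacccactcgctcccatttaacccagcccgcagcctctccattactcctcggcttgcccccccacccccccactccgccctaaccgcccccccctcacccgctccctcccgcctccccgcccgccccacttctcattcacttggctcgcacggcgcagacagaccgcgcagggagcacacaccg
MIR210HG: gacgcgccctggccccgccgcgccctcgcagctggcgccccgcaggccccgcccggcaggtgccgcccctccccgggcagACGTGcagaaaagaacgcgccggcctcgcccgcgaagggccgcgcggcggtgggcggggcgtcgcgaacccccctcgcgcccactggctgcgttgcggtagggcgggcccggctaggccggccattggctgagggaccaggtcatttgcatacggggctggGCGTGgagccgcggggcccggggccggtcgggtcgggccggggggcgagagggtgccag
SLC16A3: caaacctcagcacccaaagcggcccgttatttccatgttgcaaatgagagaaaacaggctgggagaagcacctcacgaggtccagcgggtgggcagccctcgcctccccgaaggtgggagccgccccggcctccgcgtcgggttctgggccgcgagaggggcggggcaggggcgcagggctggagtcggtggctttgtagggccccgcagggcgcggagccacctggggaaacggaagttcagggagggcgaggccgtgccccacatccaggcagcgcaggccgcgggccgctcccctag
ARRDC4: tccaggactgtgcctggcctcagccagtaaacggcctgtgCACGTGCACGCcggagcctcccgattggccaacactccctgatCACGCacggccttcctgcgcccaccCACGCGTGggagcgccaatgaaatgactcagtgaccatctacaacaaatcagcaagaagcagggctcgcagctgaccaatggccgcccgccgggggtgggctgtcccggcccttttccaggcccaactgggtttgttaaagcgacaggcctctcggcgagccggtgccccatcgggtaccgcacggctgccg

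BNIP3 held 2 matches to ACGTG and 4 to GCGTG, and BHLHE40 4 and 0. SLC16A3, which rose 4.30-fold, held neither, and ARRDC4, which fell, held 2 and 4. Among the 33 hypoxia-list members that rose and had an entry, 29 (87.9%) held either sequence. Of all tested genes 65.1% did, and of all 27305 promoters of this length 48.4%. For ACGTG alone the shares were 57.6%, 27.9% and 21.6%. The GC content of the promoters was 67.8%, 64.9% and 57.2% in the same order. Over all genes called higher 62.2% held either sequence, and over those called lower 69.7%. Among all 39 hypoxia-list members with an entry, called or not, 34 (87.2%) held either sequence and 56.4% held ACGTG. These shares therefore describe the list and are not particular to its members that rose. A match describes letters and does not show binding.

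EGLN1, the main oxygen-sensing prolyl hydroxylase, went from a mean of 93.97 to 153 CPM (0.70 ± 0.047, edgeR adjusted p = 2.15e-15). EGLN3, an inducible member of the same family, went from 3.27 ± 0.437 to 5.23 ± 0.386 CPM (SD, n = 4 per time; edgeR adjusted p = 0.000259). EGLN3 had averaged 4.85 CPM at 1 h, and 8 h against 1 h in the same fit did not pass the test (0.11, edgeR adjusted p = 0.518). Of the histone demethylases on the list, KDM3A rose by 0.74 and KDM4B by 0.84 on the log2 scale, while KDM4C (-0.034) was not called. P4HA1, a collagen prolyl hydroxylase, rose by 1.15. VEGFA, the vessel growth factor, measured 45.2, 45.2, 47.1 and 45.5 CPM at 4 h and 88.9, 85.8, 87.8 and 89.8 CPM at 8 h. That was a 1.92-fold rise with little spread and no overlap (edgeR adjusted p = 1.57e-14).

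Glucose entry and the fate of pyruvate are covered by other members. SLC2A1, a glucose transporter, measured 105, 107, 118 and 119 CPM at 4 h and 162, 175, 188 and 189 CPM at 8 h. PDK1, a kinase that inhibits pyruvate dehydrogenase, measured 57.4, 60.9, 65.2 and 60.8 CPM and then 103, 108, 109 and 107 CPM. In both, every 8 h library was above every 4 h library, with log2 fold changes of 0.67 ± 0.055 and 0.80 ± 0.055. SLC2A3, another glucose transporter, rose by 0.77 and LDHA, which makes lactate, by 0.27. Words shared with other genes make up 38.1% of SLC2A3 and 19.2% of LDHA, so some of their reads may come from other genes.

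DDIT4, an inhibitor of the growth kinase mTOR, measured 227, 251, 259.8 and 250.2 CPM at 4 h and 499, 499.7, 567 and 547 CPM at 8 h, a 2.14-fold rise without overlap. Exons on the opposite strand cover 41.2% of DDIT4, and the sources used here do not give the strand setting, so its reads are uncertain. CA9, a carbonic anhydrase widely used as a hypoxia marker, stood at only 0.938 to 2.10 CPM at 4 h and 2.82 to 3.20 CPM at 8 h (1.13 ± 0.18, edgeR adjusted p = 8.28e-06). CA9 had averaged 2.65 CPM at 1 h, and 8 h against 1 h did not pass the test (0.19, edgeR adjusted p = 0.338). Its reads are uncertain too, with 38.5% under opposite-strand exons and 0% shared words. ANKRD37 rose by 0.59, with 35.2% and 0%.

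Of the 48 members 9 did not pass the test, with log2 fold changes of 0.13 (JMJD6), 0.10 (PPP1R3B), 0.095 (RSBN1), 0.092 (ERO1A), 0.091 (EPAS1), -0.034 (KDM4C), -0.035 (QSOX1), -0.084 (HIF1A) and -0.098 (MXI1). HIF1A, the alpha subunit itself, averaged 182 CPM at 4 h and 172 CPM at 8 h (edgeR adjusted p = 0.153). No member was called lower by edgeR or DESeq2 or had an unadjusted p under 0.05 in that direction. The median over members of the log2 ratio to the 4 h mean was 0.64, 0.66, 0.78 and 0.69 in the 8 h libraries and -0.060, -0.0038, 0.033 and 0.021 in the 4 h libraries. All 4 libraries at 8 h lay above all 4 at 4 h on this measure. With a minimum fold change of 1.2 in the test, 30 members were higher, against 172 of all 9822 genes.

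Most enzymes of glycolysis rose. Of 17 measured, 13 were higher (76.5%, against 15.9% of all genes) and 0 lower (against 14.8%), with a median of 0.24. The counts were 15 and 0 at an unadjusted p under 0.05, which 4023 of all 9822 genes passed in either direction, and 13 and 0 by DESeq2. From 1 to 4 h 10 of the 17 had been lower and 1 higher, with a median of -0.215. Of all genes 19.1% were lower and 16% higher in that interval. The median over members of the log2 ratio to the 4 h mean was 0.13 to 0.29 in the 1 h libraries. In the 8 h libraries it was 0.18 to 0.32, so these ranges overlapped. HK1, which traps glucose in the cell, measured 123, 123, 134 and 127 CPM at 4 h and 203, 204, 208 and 214 CPM at 8 h. ENO2, an enolase, measured 90.6, 95.5, 86.2 and 93.98 CPM and then 157, 147, 149 and 168 CPM. Neither overlapped between times (0.71 ± 0.040, edgeR adjusted p = 1.31e-17 for HK1 and 0.76 ± 0.046, edgeR adjusted p = 1.16e-16 for ENO2). PFKP, a phosphofructokinase, rose by 0.39 and GPI, the isomerase after hexokinase, by 0.33, with 22% shared words in GPI. PGK1, with 0.11, was not called (edgeR adjusted p = 0.0926). HK2 and LDHA stand on both this list and the hypoxia list. When at least a 1.2-fold change was asked for, 3 members were higher, against 172 of all 9822 genes. With GC and width offsets 13 members were higher and the median was 0.19.

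Genes of mitochondrial respiration had small median changes. The median was 0.034 over 25 enzymes of the citric acid cycle and 0.079 over 72 nuclear genes of oxidative phosphorylation, and -0.011 and 0.020 with GC and width offsets. In the oxidative phosphorylation list 58 of 72 members had a fold change above 0 on the log2 scale, against 4892 of all 9822 genes. Of the members 6 were called higher (8.33%, against 15.9% of all genes) and 1 lower (1.39%, against 14.8%). The counts were 19 and 3 at an unadjusted p under 0.05, which 4023 of all 9822 genes passed in either direction, and 5 and 2 by DESeq2. Fitted on the 8 DMSO libraries alone, 15 were higher and 3 lower. The higher count was 2 without 8 h replicate 4 and 3 without 4 h replicate 1, and the lower count 0 without 4 h replicate 2 or 8 h replicate 1 and 3 without 8 h replicate 3. DLAT, a subunit of pyruvate dehydrogenase, the enzyme that PDK1 inhibits, fell from 78.4, 79.2, 83.7 and 76.8 CPM to 71.8, 71.96, 70.5 and 65.9 CPM, without overlap (-0.18 ± 0.048, edgeR adjusted p = 0.00334).

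Chaperones of the endoplasmic reticulum rose together. In the unfolded protein response list 15 of 22 members were higher (68.2%, against 15.9% of all genes) and 1 lower (4.55%, against 14.8%). The median was 0.20. MANF, a secreted factor of this response, measured 107, 97.9, 93.98 and 100.1 CPM at 4 h and 154, 158, 169 and 165 CPM at 8 h. PDIA4, a disulphide isomerase, measured 329.7, 314, 315 and 330.0 CPM and then 485, 495, 486 and 510.0 CPM. Neither overlapped (0.70 ± 0.052, edgeR adjusted p = 7.67e-14 for MANF and 0.62 ± 0.042, edgeR adjusted p = 5.48e-15 for PDIA4). HSP90B1, the HSP90 of the reticulum, rose by 0.71 (22% shared words, uncertain), the transcription factor XBP1 by 0.50 and HSPA5, the chaperone BiP, by 0.39. ERN1, the sensor that activates XBP1, was the lower member (-0.38, edgeR adjusted p = 0.0378). Its adjusted p was 0.0716 and 0.189 without 4 h replicate 3 or 4, and 0.0725, 0.0552, 0.0703 and 0.0648 without 8 h replicate 1, 2, 3 or 4. At the minimum fold change of 1.2, 6 members were higher, against 172 of all 9822 genes.

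In the heat-shock list 13 of 19 were higher (68.4%, against 15.9% of all genes) and 0 lower (against 14.8%), with a median of 0.21. The counts were 16 and 0 at an unadjusted p under 0.05, which 4023 of all 9822 genes passed in either direction, and 13 and 0 by DESeq2. BAG3, a co-chaperone, measured 28.3, 29.7, 29.6 and 28.8 CPM at 4 h and 37.1, 39.1, 38.9 and 40.7 CPM at 8 h, without overlap (0.42 ± 0.053, edgeR adjusted p = 6.40e-08). HSPA4L rose by 0.46, the collagen chaperone SERPINH1 by 0.41 and HSP90AA1 by 0.40. HSPA8 rose by 0.42, with 39.5% shared words. DNAJB1, a classical heat-shock target, had 0.034 and was not called. The 1.2-fold minimum left 3 members higher, against 172 of all 9822 genes.

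Lipid synthesis genes rose by small amounts. Of 22 sterol synthesis genes 14 were higher (63.6%, against 15.9% of all genes) and 0 lower (against 14.8%), with a median of 0.18. The sterol counts were 14 and 0 at an unadjusted p under 0.05, which 4023 of all 9822 genes passed in either direction, and 14 and 0 by DESeq2. Of 13 fatty acid synthesis genes 6 were higher (46.2%) and 0 lower, with a median of 0.12. Here the counts were 7 and 0 at an unadjusted p under 0.05, and 6 and 0 by DESeq2. FDFT1, squalene synthase, measured 526, 548, 544 and 551 CPM at 4 h and 702, 672, 712 and 712 CPM at 8 h. FADS2, a fatty acid desaturase, measured 445, 429.6, 430.5 and 446 CPM and then 589, 599.8, 581 and 637 CPM. Both rose without overlap (0.37 ± 0.037, edgeR adjusted p = 2.54e-10 for FDFT1 and 0.46 ± 0.039, edgeR adjusted p = 3.70e-12 for FADS2). LSS, which closes the sterol rings, rose by 0.37 and INSIG1, a brake on the pathway, by 0.21. At the 1.2-fold minimum 1 sterol gene and 2 fatty acid genes were higher, against 172 of all 9822 genes. With GC and width offsets 13 sterol genes were higher and their median was 0.13.

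In the nucleolar list no member was called higher by edgeR or DESeq2 or had an unadjusted p under 0.05 in that direction, and 29 were lower by DESeq2. UTP20, a factor of small-subunit assembly, measured 103, 92.96, 99.9 and 98.2 CPM at 4 h and 77.97, 82.9, 73.6 and 69.1 CPM at 8 h. DDX21, an RNA helicase of the nucleolus, measured 548, 572, 565 and 535 CPM and then 447, 447, 443 and 419 CPM. In both, every 8 h library was below every 4 h library (-0.38 ± 0.048, edgeR adjusted p = 7.97e-08 for UTP20 and -0.34 ± 0.034, edgeR adjusted p = 2.93e-10 for DDX21). DDX10 had -0.31 and POLR1B, a subunit of RNA polymerase I, -0.29. NPM1 (-0.11), FBL (0.076) and BOP1 (0.075) did not pass. At the 1.2-fold minimum 0 members were lower by edgeR, against 21 of all 9822 genes, so the changes were many and small.

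MYC itself measured 734, 747, 761 and 747 CPM at 4 h and 648, 651, 619 and 661 CPM at 8 h, without overlap (-0.21 ± 0.040, edgeR adjusted p = 8.32e-05). MYB, another transcription factor of T-cell leukaemia, fell by 0.21. RRP15, a ribosome assembly factor that is not on the nucleolar list, fell from 62.02, 61.6, 61.97 and 59.9 CPM to 47.2, 43.8, 42.7 and 39.2 CPM (-0.51 ± 0.058, edgeR adjusted p = 7.22e-09). The ribosomal proteins themselves had medians of 0.044 (69 cytosolic) and -0.0057 (69 mitochondrial), which became -0.016 and -0.037 with GC and width offsets.

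**Figure D3:**
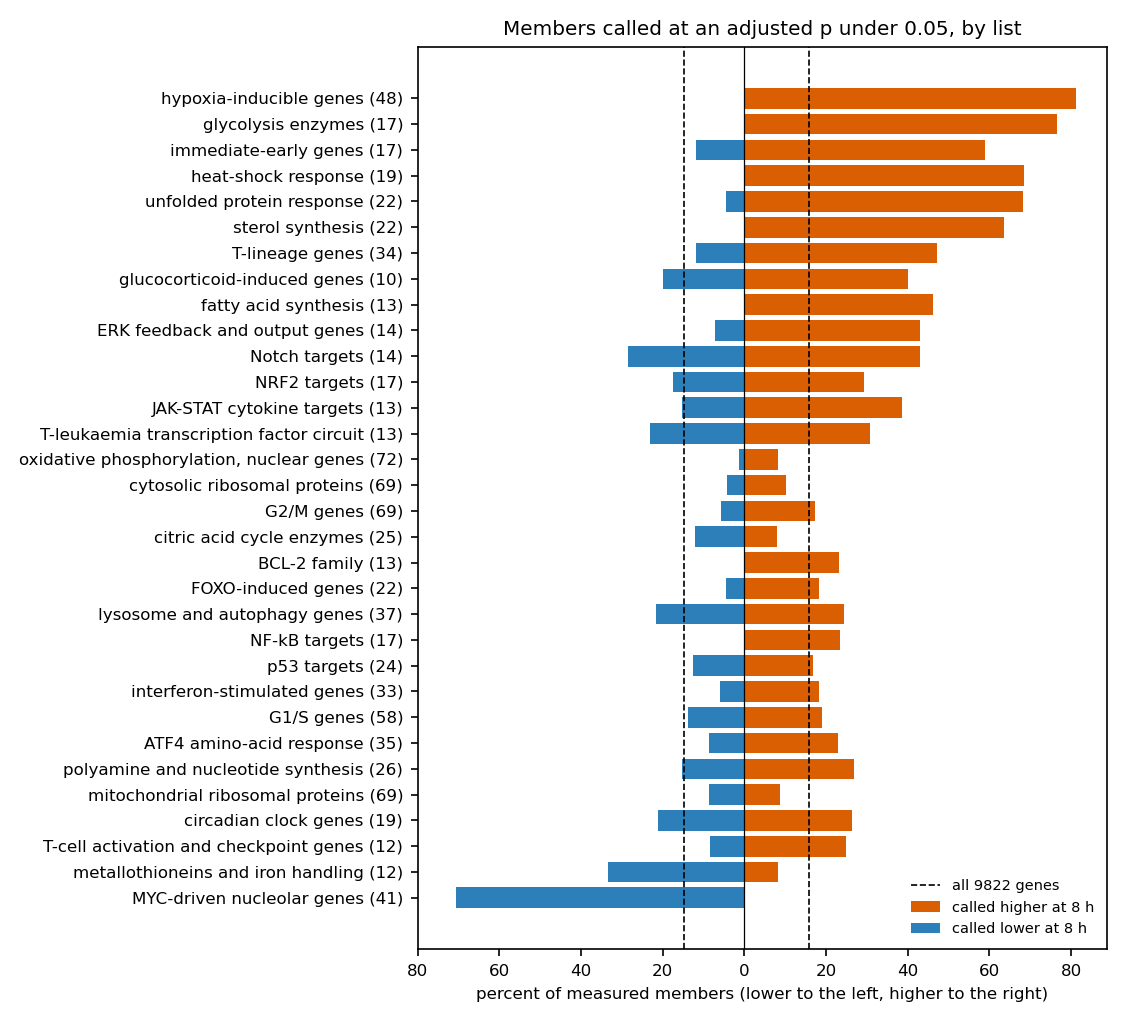
Percent of the measured members of each list called higher (to the right) or lower (to the left) at 8 h in DMSO, for lists with at least 10 measured members, with the number measured in brackets. Dashed lines mark all genes (15.9% higher, 14.8% lower); the hypoxia list reaches 81.2% higher and the nucleolar list 70.7% lower.

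Few decreases were large. CTSO, a lysosomal cysteine protease, measured 7.76, 8.82, 8.07 and 7.97 CPM at 4 h and 3.14, 4.72, 3.61 and 3.74 CPM at 8 h. AFF2, a nuclear protein of the AF4 family, measured 9.45, 8.12, 10.1 and 7.59 CPM and then 4.55, 4.47, 4.49 and 3.80 CPM. These were the 2 genes lower by at least 2-fold, with no overlap (-1.10 ± 0.14, edgeR adjusted p = 6.81e-08 for CTSO and -1.02 ± 0.11, edgeR adjusted p = 2.46e-09 for AFF2). PRKCE, a protein kinase C, measured 73.5, 74.8, 75.4 and 74.98 CPM and then 51.6, 52.1, 52.1 and 49.3 CPM, with little spread and no overlap (-0.54 ± 0.044, edgeR adjusted p = 1.15e-12). ARRDC4, an arrestin-like gene that the glucose-sensing factor MondoA turns on, measured 18.6, 19.02, 17.1 and 16.4 CPM and then 11.99, 11.3, 11.8 and 13.01 CPM. It fell without overlap (-0.57 ± 0.083, edgeR adjusted p = 1.56e-06). Of 5 measured MondoA targets ARRDC4 was the only 1 called lower (20%, against 14.8% of all genes). Another 2 were higher (40%, against 15.9%), and the median was 0.074. The other 10 of the 14 largest decreases ranged from -0.54 to -0.48.

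Clock genes were called in shares not far from those of all genes. Of 19 measured, 5 were higher (26.3%, against 15.9% of all genes) and 4 lower (21.1%, against 14.8%), with a median of -0.017. NR1D2, a nuclear receptor that represses the clock, measured 44.6, 44.97, 45.5 and 36.9 CPM at 4 h and 31.7, 30.9, 33.1 and 25.3 CPM at 8 h. HLF, an output factor of the clock, measured 7.70, 8.38, 7.88 and 10.1 CPM and then 6.54, 6.04, 5.65 and 5.22 CPM. Both fell without overlap, although replicate 4 was the lowest NR1D2 library at each time (-0.51 ± 0.073, edgeR adjusted p = 1.13e-06 for NR1D2 and -0.53 ± 0.11, edgeR adjusted p = 0.000193 for HLF). PER1 rose by 0.35, while PER2 had -0.12 and was not called (edgeR adjusted p = 0.0676). BHLHE40 and RORA, among the higher clock genes, are also on the hypoxia list.

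T-lineage genes were higher in 16 of 34 (47.1%, against 15.9% of all genes) and lower in 4 (11.8%, against 14.8%). Their median was 0.17. The lower count was 2 without 4 h replicate 3, and 7 without scaling factors or with GC and width offsets. At the minimum fold change of 1.2, 2 members were higher and 0 lower, against 172 and 21 of all 9822 genes. CD4, a coreceptor of the T-cell receptor, measured 10.2, 10.9, 12.1 and 10.8 CPM at 4 h and 21.5, 20.1, 20.8 and 23.4 CPM at 8 h. THEMIS, a signalling protein of thymocytes, measured 251, 272, 272 and 261 CPM and then 362, 377, 384 and 368 CPM. Neither overlapped (0.96 ± 0.089, edgeR adjusted p = 3.84e-11 for CD4 and 0.50 ± 0.038, edgeR adjusted p = 1.99e-13 for THEMIS). PTCRA, the surrogate alpha chain of the immature receptor, rose by 0.40. ICOS, a costimulatory receptor that is not on this list, fell by 0.34.

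Immediate-early genes, which answer to growth and stress signals, were higher in 10 of 17 (58.8%, against 15.9% of all genes). They were lower in 2 (11.8%, against 14.8%), with a median of 0.23. With GC and width offsets 9 were higher and 3 lower, and the median was 0.14. The 1.2-fold minimum left 4 higher and 0 lower, against 172 and 21 of all 9822 genes. EGR1, a zinc-finger factor downstream of ERK, measured 13.4, 13.04, 13.8 and 14.03 CPM at 4 h and 24.9, 22.3, 29.2 and 28.5 CPM at 8 h, a 1.93-fold rise without overlap (edgeR adjusted p = 1.58e-12). CSRNP1 rose by 0.87, BTG2, an antiproliferative gene, by 0.63, and FOSL2 by 0.43. ETV5, an output of ERK signalling, rose by 0.79. The ATF4 amino-acid response, with 35 measured genes, had a median of -0.00090, and its reporters ASNS (-0.082) and DDIT3 (0.061), both uncertain in their reads, were not called. STC2, VEGFA and VLDLR, which led it, are also on the hypoxia list.

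The later change was set against the earlier one, from 1 to 4 h. Both use the same 4 h libraries, so the values stand side by side and the difference of the changes was tested directly. The intervals were 4 and 3 h. The difference was positive in 1389 genes (14.1%) and negative in 1320 (13.4%). In the hypoxia list it was positive in 29 of 48 members and negative in 3, with median changes of -0.089 and then 0.69. The small early median hid a split, since from 1 to 4 h 17 of the 48 members were higher and 21 lower. Of all genes 16% were higher and 19.1% lower in that interval.

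PFKFB4 averaged 14.99, 9.90 and 61.7 CPM at 1, 4 and 8 h, so it was lowest in the middle (difference 3.24 ± 0.16, edgeR adjusted p = 3.30e-18). SLC16A3 averaged 8.11, 5.57 and 24.00 CPM and AK4 44.3, 33.02 and 83.6 CPM, in the same order. ADM rose through both intervals, with 0.600, 10.2 and 37.8 CPM. Its log2 fold change was 4.06 and then 1.89 (difference -2.17 ± 0.32, edgeR adjusted p = 1.59e-06). DDIT4 averaged 49.2, 247 and 528 CPM (difference -1.23 ± 0.11, edgeR adjusted p = 1.93e-11). For VEGFA, with 0.97 and then 0.94, the difference did not pass the test (-0.025 ± 0.12, edgeR adjusted p = 0.902).

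Many cell cycle genes changed before 4 h. From 1 to 4 h 61 of 69 G2/M genes were higher and 41 of 58 G1/S genes lower, where 16% and 19.1% of all genes were. From 4 to 8 h 12 G2/M genes were higher (17.4%) and 4 lower (5.8%), with a median of 0.034. In the same interval 11 G1/S genes were higher (19%) and 8 lower (13.8%), with a median of 0.012. Of all genes 15.9% were higher and 14.8% lower, so apart from the lower G2/M genes these shares were near those of all genes. For G2/M the higher count was 6 without 4 h replicate 3, and the lower count was 0 without 8 h replicate 4, 1 without 4 h replicate 1 or 4 h replicate 2 and 2 without 4 h replicate 3 or 8 h replicate 3. For G1/S the higher count was 6 without 4 h replicate 3 and 7 without 4 h replicate 1 or 8 h replicate 2 or 8 h replicate 4, and the lower count was 4 without 4 h replicate 3 or 8 h replicate 2 and 5 without 4 h replicate 4 or 8 h replicate 1. The difference of the changes was negative in 41 G2/M genes and positive in 0 (edgeR; positive and negative in 0 and 49 at an unadjusted p under 0.05, and 0 and 46 by DESeq2). It was positive in 29 G1/S genes and negative in 2. CCNB1, the mitotic cyclin, measured 173, 176, 169.7 and 177 CPM at 4 h and 179.9, 184, 187 and 177 CPM at 8 h, and the groups overlapped (0.064 ± 0.043, edgeR adjusted p = 0.269).

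**Figure D4:**
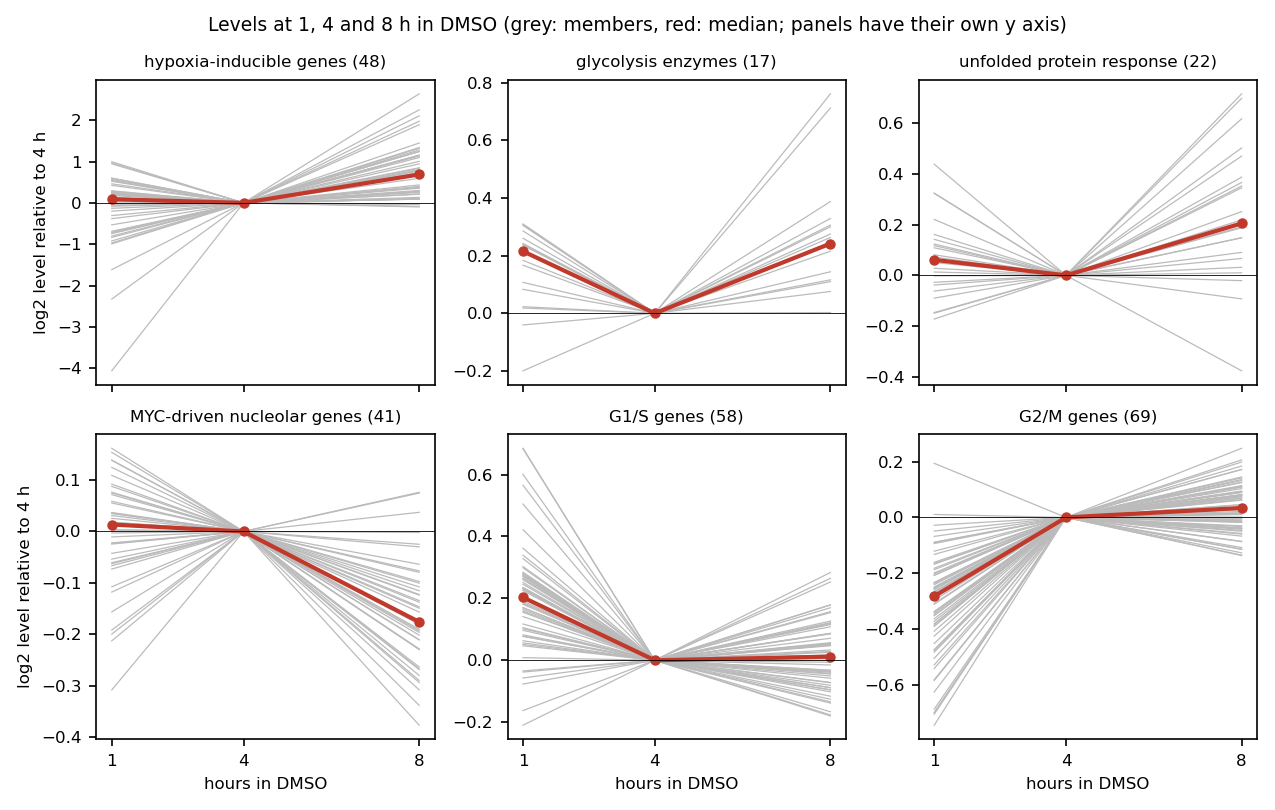
Log2 level relative to the 4 h mean, at 1, 4 and 8 h in DMSO, for 6 gene lists, with a grey line per member and a coloured line for the median. All lines pass through 0 at 4 h because that time is the reference of both changes; from 4 to 8 h the hypoxia median gains 0.69 and the G2/M median 0.034.

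The interval from 4 to 8 h was also compared between DMSO and SK-3-91, which share no libraries. The SK-3-91 libraries at 8 h were shallower, with 6862520 to 8963329 reads, and the part of depth in the differences was not tested. In SK-3-91 itself 7213 genes passed the test (73.4%). The difference, DMSO minus SK-3-91, was positive in 3245 genes (33%) and negative in 3493 (35.6%). In the hypoxia list it was positive in 31 of 48 members and negative in 8, and the median change was 0.69 in DMSO and 0.14 in SK-3-91.

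PFKFB4 measured 8.88, 10.8, 9.07 and 7.36 CPM at 4 h and 5.06, 4.14, 5.53 and 6.38 CPM at 8 h in SK-3-91. Its log2 fold change was -0.78 there and 2.64 in DMSO (difference 3.42 ± 0.18, edgeR adjusted p = 2.58e-19). LDHA had -1.96 in SK-3-91 and 0.27 in DMSO (difference 2.23 ± 0.062, edgeR adjusted p = 1.21e-27). HK2 ran the other way, with 0.71 and 0.30 (difference -0.41 ± 0.059, edgeR adjusted p = 1.10e-07). For ADM the difference did not pass the test (1.24 ± 0.57, edgeR adjusted p = 0.0516), with levels in SK-3-91 of only 0.313 to 0.818 CPM at 4 h and 0.422 to 1.24 CPM at 8 h. APLN, a secreted peptide, rose by 1.02 in DMSO and had -1.56 in SK-3-91, and ARRDC4 had -0.57 and 1.26. In the nucleolar list the median was -0.18 in DMSO and -0.37 in SK-3-91, with the difference positive in 22 of 41 members and negative in 14.

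**Figure D5:**
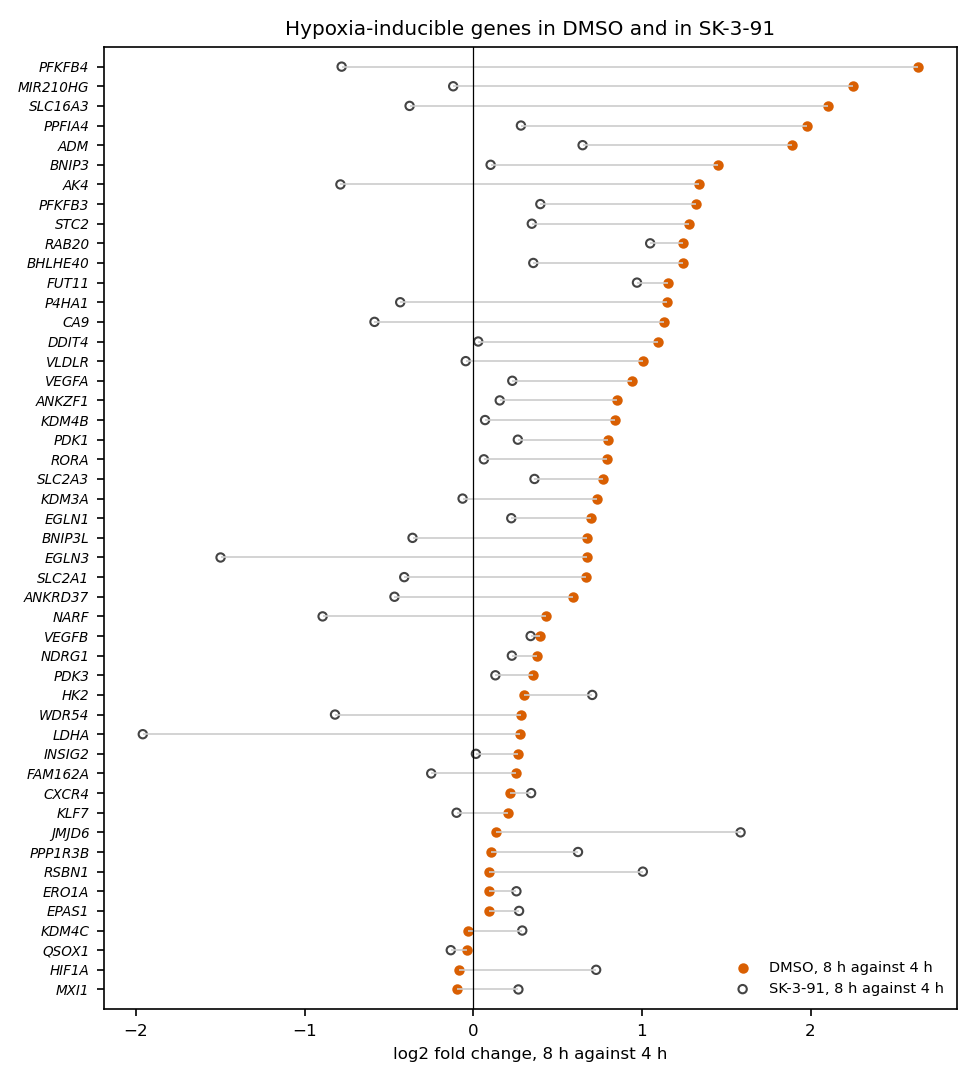
Log2 fold change from 4 to 8 h of the 48 hypoxia-inducible genes in DMSO (filled) and in SK-3-91 (open), 1 row per gene, ordered by the change in DMSO. PFKFB4 lies at 2.64 and -0.78 and LDHA at 0.27 and -1.96, while HK2 lies further right in SK-3-91.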

How the data were processed

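RNA was sequenced as single-end reads of 50 bases on the BGISEQ-500, per the labels' protocols. The deposited table gives whole-number counts per gene, not normalized, and the authors' notes name edgeR and build hg19, per the submitters' processing notes. Neither the aligner, the counter, the annotation nor the strand setting is named in the sources used here. The table held 9822 genes, none with a mean count under 32.04, so it had been filtered before deposit. A second deposited table holds log2 values, a linear function of the counts per library after back-transformation, and gave the symbols of 9818 genes. The gene width in bases that the authors deposited came from the count table.

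Counts of all 24 libraries were fitted as 6 group means with edgeR 4.0.16 (with limma 3.58.1 in R 4.3.3), TMM factors and the quasi-likelihood test, after filterByExpr had dropped 0 genes, with Benjamini-Hochberg adjustment over 9822 genes and a threshold of 0.05. The median SE of a log2 fold change was 0.0571. Printed levels are TMM-scaled CPM. Alternatives were DESeq2 1.42.0, other scalings and filters, a minimum fold change of 1.2, fewer libraries, the replicate number as a block, each library left out in turn and, added after seeing the data, offsets for GC content and width. On simulated data 57 of 67 genes changed 1.25-fold, 65 of 67 changed 1.5-fold and 66 of 66 changed 2-fold were called, with 11 unchanged genes called among 9822. Named genes are the 14 largest increases and decreases that were called, at 5 CPM or more and without overlap, up to 4 called members per list at 2 CPM or more, the 6 largest differences of changes per direction among genes called from 4 to 8 h at 5 CPM or more and without overlap, and a fixed set; other list members were named after their values were seen. Genes with 20% or more of their 32-base words (GENCODE 29) shared with other genes, or of their length under opposite-strand exons, are called uncertain. The members and lists were chosen with earlier results of these data known. Some single-gene values are not reported here.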

Additional observations from a re-analysis of the deposited data

Results flagged for a closer look

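Among 368 groups of 4 DMSO libraries, 1 per named gene and time, 24 had a library set apart, its gap to the nearest other, as a share of the group's range, being over Dixon's critical value for 4 samples. Chance marks about 1 in 20 groups. 4 h replicate 1 held SERPINH1 (19.3 CPM), CD69 (23.97 CPM) and EOMES (13.3 CPM). 4 h replicate 2 held HSPA8 (2256 CPM). 4 h replicate 3 held VLDLR (9.94 CPM), VEGFA (47.1 CPM) and PDHB (79.6 CPM). 4 h replicate 4 held NDUFB3 (34.7 CPM) and NR1D2 (36.9 CPM). 8 h replicate 1 held HES1 (56.7 CPM) and INSIG1 (904 CPM). 8 h replicate 2 held BNIP3 (45.8 CPM) and PER1 (62.9 CPM). 8 h replicate 3 held PFKFB3 (303 CPM), LSS (159 CPM), HK2 (191 CPM), E2F2 (105 CPM) and ANXA1 (129 CPM). 8 h replicate 4 held TFEB (13.98 CPM), LAG3 (6.64 CPM), HMGCS1 (273 CPM), GCLM (48.1 CPM), DDX21 (419 CPM) and AFF2 (3.80 CPM).

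The later and the earlier change in DMSO differed (log2 difference, edgeR interaction test) by the most, among genes that also passed the rule for the largest changes (called from 4 to 8 h, at 5 CPM or more and without overlap), in PFKFB4 (3.24), SLC16A3 (2.65), PPFIA4 (2.97), ADM (-2.17), CERCAM (2.22), AK4 (1.76), DDIT4 (-1.23), SDK2 (2.37), AKAP6 (-0.94), ABAT (-0.95), AFF2 (-1.21) and CTSO (-1.16). CA9, at under 5 CPM, had 2.08. AKAP6 fell by 0.42 from 4 to 8 h, a call lost without 4 h replicate 3 (-0.34, edgeR adjusted p = 0.0509) or 8 h replicate 3 (-0.32, edgeR adjusted p = 0.0522). The change from 4 to 8 h differed between DMSO and SK-3-91 by the most, under the same rule, in PFKFB4 (3.42), SLC16A3 (2.48), RASAL1 (2.58), APLN (2.57), FAM171A2 (2.66), SLC29A1 (2.53), TXLNG (-1.47), DBF4 (-1.55), DCP1A (-1.44), LCLAT1 (-1.61), ICOS (-1.95) and ARRDC4 (-1.83). TXLNG fell by 0.15 in DMSO, a call lost without 8 h replicate 4 (-0.13, edgeR adjusted p = 0.0510). With GC and width offsets the DMSO change of DBF4 went from -0.17 to -0.11 and that of LCLAT1 from -0.23 to -0.15.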

How the results depend on the processing

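No single-gene call reversed. The excess of higher over lower genes turned round without scaling factors (1266 and 1829), by DESeq2 and with GC and width offsets (1426 and 1675). With a minimum fold change of 1.2, 172 genes were higher and 21 lower, and the later and earlier changes differed positively in 385 and negatively in 254. By DESeq2 1499 were higher and 1512 lower. Leaving out each library in turn gave 1214 to 1528 higher and 1092 to 1378 lower, 1053 to 1436 and 1011 to 1328 for the difference from the earlier change, and 3174 to 3231 and 3410 to 3483 for that from SK-3-91. The replicate block gave 1537 and 1442, 1396 and 1308, and 3249 and 3488. Same-numbered 4 h and 8 h libraries had correlated deviations of 0.0688 to 0.28, above 0.1 in 2 of 4 pairs, and 6 of 8 libraries correlated best with their own number, a hint from the data, so the number was not taken as a pairing. Over single genes, 3280 values kept their call, 210 lost it and 15 gained it. Medians near 0 changed sign under at least 1 alternative in the citric acid cycle, both ribosomal, ATF4, G1/S and clock lists. So did those of the polyamine and nucleotide synthesis, interferon, p53, NF-kB, lysosome and BCL-2 lists. With GC and width offsets 1 fatty acid synthesis gene was lower. Fits on fewer libraries could not give the SK-3-91 difference. Causes were not tested.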

Other observations

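Of 17 measured NRF2 targets, genes of the antioxidant response, 5 were higher and 3 lower (29.4% and 17.6%, against 15.9% and 14.8% of all genes), and 3 and 6 with GC and width offsets. The higher count was 3 without 4 h replicate 3 or 8 h replicate 4. GCLM, a subunit of the enzyme that starts glutathione synthesis, measured 61.3, 61.5, 63.03 and 59.3 CPM at 4 h and 50.3, 50.4, 50.1 and 48.1 CPM at 8 h, and TXNRD1, thioredoxin reductase, measured 410.4, 429, 431 and 399 CPM and then 357, 357, 367 and 342 CPM. Neither overlapped, and both fell (-0.30 ± 0.048, edgeR adjusted p = 6.25e-06 for GCLM and -0.23 ± 0.039, edgeR adjusted p = 1.60e-05 for TXNRD1). ABCC1, an exporter of glutathione conjugates, rose by 0.23. Of 12 metallothionein and iron-handling genes 4 were lower (33.3%, against 14.8% of all genes) and 1 higher (8.33%, against 15.9%). That higher count was 0 without 4 h replicate 1 or 4 h replicate 3 or 8 h replicate 1 or 8 h replicate 2. MT1X, a metallothionein, measured 13.9, 13.7, 13.4 and 15.2 CPM at 4 h and 10.1, 10.2, 11.02 and 10.8 CPM at 8 h, and SLC30A1, a zinc exporter, measured 5.51, 5.48, 4.94 and 5.87 CPM and then 4.04, 4.22, 4.35 and 3.09 CPM, and both fell (-0.42 ± 0.097, edgeR adjusted p = 0.00106 for MT1X and -0.47 ± 0.13, edgeR adjusted p = 0.00425 for SLC30A1).

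Single regulators also rose. TFEB, a transcription factor of lysosomes, measured 8.89, 7.75, 8.07 and 8.99 CPM at 4 h and 11.5, 11.4, 11.4 and 13.98 CPM at 8 h (0.52 ± 0.095, edgeR adjusted p = 6.22e-05). CCND3, a cyclin of T-cell precursors, measured 647, 639.7, 649 and 656 CPM and then 824, 809, 866 and 874 CPM (0.38 ± 0.036, edgeR adjusted p = 8.14e-11), and NFATC1, a calcineurin-dependent factor, rose by 0.49. None of these 3 overlapped between the times.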
